A study of Saccharomyces cerevisiae with 32 samples.

Results

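Transcript levels of 10 yeast genes of purine salvage and of the route from AMP through IMP to inosine and hypoxanthine were followed after sugar was added to cells growing on galactose. The genes were picked by name, with earlier results of these data known: AMD1, ISN1, PNP1, AAH1, HPT1, APT1, ADO1, IMD2, IMD3 and IMD4. They are 10 of the 6717 genes in the deposited table. The study took messenger RNA of Saccharomyces cerevisiae, budding yeast, from a wild-type strain (WT, DBY12000) and from a tps1 mutant strain (tps1, DBY12383). Log-phase cultures of both strains in 2% galactose (yeast nitrogen base) gave the 0 min samples. Glucose or fructose was then brought to 2%, and samples followed at 3, 5, 10, 15, 30, 60 and 120 min. Each of the 32 libraries is thus the only one of its strain, sugar and time. Strain background, mating type and the exact tps1 allele are not given in the sources used here.

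Purine salvage returns bases and nucleosides to the nucleotide pool. AMP deaminase (AMD1) turns AMP into IMP, the IMP nucleotidase ISN1 turns IMP into inosine, and the purine nucleoside phosphorylase PNP1 splits inosine and guanosine into the free bases hypoxanthine and guanine. Adenine deaminase (AAH1) also makes hypoxanthine, which the hypoxanthine-guanine phosphoribosyltransferase HPT1 puts back into IMP. APT1 is the adenine phosphoribosyltransferase, ADO1 the adenosine kinase, and IMD2, IMD3 and IMD4 encode IMP dehydrogenase, the first step from IMP towards GTP. In budding yeast, a sudden supply of fermentable sugar is known to lower ATP for a short time while IMP and inosine build up. TPS1 encodes trehalose-6-phosphate synthase, and yeast lacking this enzyme can use galactose but is known to do badly on glucose.

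The deposited values are FPKM, fragments per kilobase of transcript and M fragments, where M is the prefix mega. The steps between low FPKM values gave an estimated depth of 3.33 to 7.93 M fragments per library, and the fewest fragments behind a member's value, about 92 for AMD1 in tps1 fructose at 60 min, give a counting error of 10.4%. As a check of the labels, TPS1 itself had 43.2 to 326 FPKM in WT (16 libraries) and 0 to 1.18 FPKM in tps1 (16 libraries). The FPKM of all genes summed to 1.19 to 1.37 M in the 4 galactose libraries, to 1.32 to 1.60 M in WT after sugar and to 1.51 to 2.58 M in tps1 after sugar. Because that sum differed with strain and time, each result was also computed with the sums made equal, which placed the median gene of tps1 after sugar at -0.48 (early glucose) to -0.89 (late fructose) relative to galactose on the log2 scale, and that of WT at -0.08 to -0.22. Values under that scaling are given beside the results they bear on most. In bulk libraries, fewer cells carrying a transcript and less of it per cell cannot be told apart.

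Times from 3 to 15 min form the early phase (4 libraries per course) and times from 30 to 120 min the late phase (3 libraries). Each phase was set against the pair of galactose libraries from the same strain (n = 2), and the strains were compared by tps1 minus WT differences at matched sugar and time. All differences are on the log2(FPKM + 1) scale, as estimate ± SE from limma over the 6203 genes that averaged 1 FPKM or more, among them all 10 members. A gene is called, and is said to rise or fall, at an adjusted p (Benjamini-Hochberg over all genes tested) under 0.05 together with at least a 2-fold difference. The sources used here do not say if the galactose pair of a strain came from separate cultures, and the label of the tps1 library at 0 min of the fructose course has a mark, trd, of unknown meaning. The libraries of a course are serial samples, so the p-values describe the spread among them and not among cultures.

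Over all 32 libraries the members spanned a wide range of levels. ADO1 was the highest (median 1723 FPKM, from 1169 to 2934), followed by HPT1 (median 691), APT1 (598) and IMD3 (466). IMD4 (median 173), AAH1 (131), PNP1 (127) and IMD2 (84.1) came next, and their ranges over the libraries overlapped one another. ISN1 (median 57.1, from 27.8 to 137) and AMD1 (median 28.2, from 13.3 to 53.2) were the lowest.

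**Figure D1:**
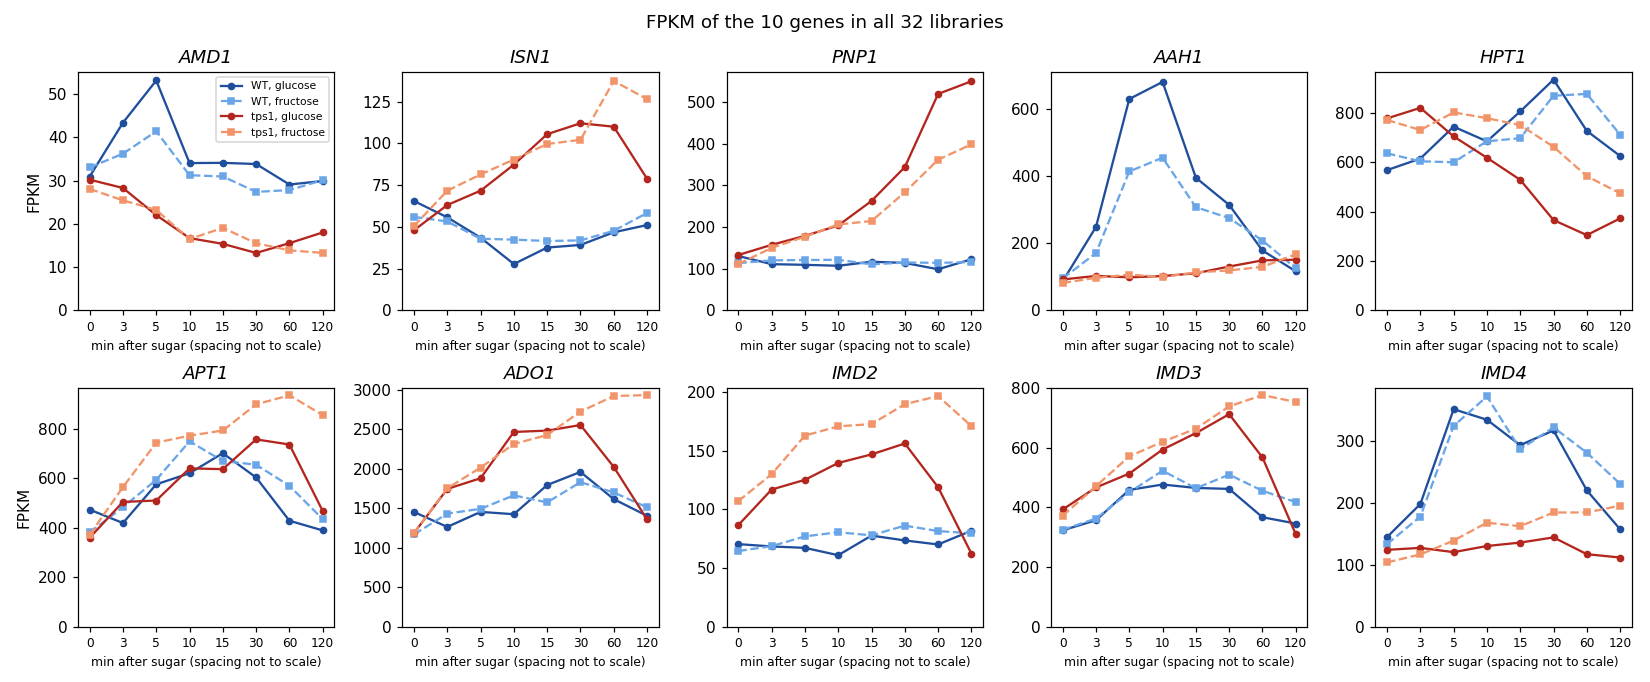
FPKM (linear axis from 0) of each of the 10 genes against the time after sugar, 1 point per library, with WT in blue, tps1 in red, glucose as solid and fructose as dashed lines. AAH1 and IMD4 peak in WT at 5 to 10 min, while ISN1 and PNP1 climb in tps1 and stay near or below their galactose level in WT.

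In galactose the strains did not differ by the calling rule in any member. limma called 0 of 10 members, where 0.129% of all genes tested were called. In limma 11.8% of all genes had an unadjusted p under 0.05, as did 3 members. These were HPT1 with 0.36 ± 0.09, IMD2 with 0.51 ± 0.13 and IMD3 with 0.24 ± 0.07, each higher in tps1, and their adjusted p lay between 0.306 and 0.386. With 2 libraries per strain, smaller differences could not be resolved.

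After sugar, members were called in WT in the early phase and in tps1 in the late phase. A call in 1 strain alone does not show that the strains differ, and overlap over all genes was not counted. With the galactose difference taken off, the strain differences of IMD4, ADO1 and APT1 were called in no phase. In WT the early phase held 2 called members in glucose, where 7.04% of all genes were called, and 2 in fructose, where 5.06% were, and in both sugars these were AAH1 and IMD4. In the late phase of WT limma called 0 members in glucose (1.74% of all genes) and 0 in fructose (3.97%). An unadjusted p under 0.05 was found for 2 and 4 members, and for 21.8% and 28.3% of all genes. In tps1 the early phase gave 0 called members in glucose (3.68% of all genes) and 0 in fructose (3.01%). In limma 7 members had an unadjusted p under 0.05 in each, where 36.0% and 33.1% of all genes did. By the late phase tps1 had 2 called members in glucose, PNP1 up and HPT1 down, against 15.3% of all genes. In late fructose it had 4, namely PNP1, ISN1, ADO1 and APT1, all up, against 16.3% of all genes. Both courses of a strain were compared with the same galactose libraries, so their counts are not independent. The median log2 difference of the members was 0.28 and 0.20 in early WT (glucose, fructose) and 0.21 and 0.36 in late WT. In tps1 it was 0.49 and 0.60 in the early and 0.54 and 0.96 in the late phase. The median of all genes lay between -0.03 and 0.02 in these comparisons. All these medians are of the FPKM as deposited.

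**Figure D2:**
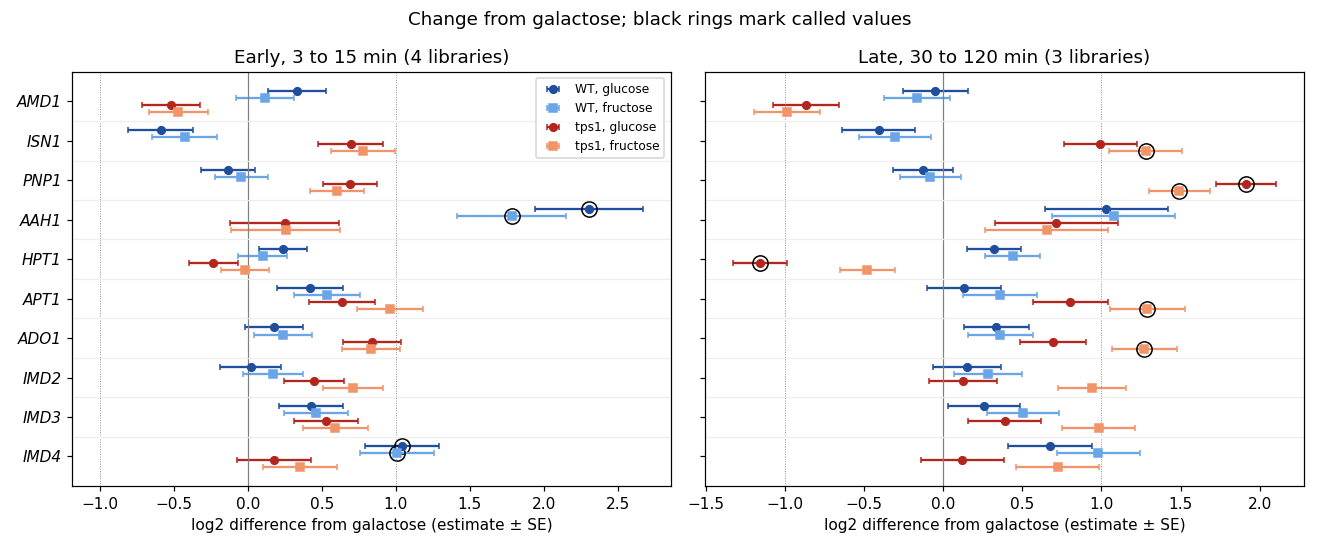
Estimated log2 difference from galactose for each gene (points, bars are ± SE) in the early (left) and late (right) phase, by strain and sugar, with dotted lines at a 2-fold change and black rings on called values. The called early values are AAH1 and IMD4 of WT, and the called late values are all from tps1.

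AMD1, which makes IMP from AMP, was lower in tps1 than in WT at every matched time after sugar, by nearly 2-fold in the late phase. In the order of the 8 times, AMD1 measured 30.9, 43.4, 53.2, 34.1, 34.1, 33.9, 29.1 and 29.9 FPKM in the WT glucose course and 30.2, 28.3, 22.0, 16.7, 15.4, 13.3, 15.6 and 18.0 FPKM in that of tps1. For fructose the values were 33.1, 36.2, 41.4, 31.3, 31.0, 27.4, 27.8 and 30.1 FPKM in WT and 28.1, 25.5, 23.2, 16.5, 19.1, 15.5, 13.9 and 13.3 FPKM in tps1. WT reached its highest value of AMD1 at 5 min in both sugars, while every tps1 library from 3 min on lay below its WT counterpart and below both tps1 galactose libraries save the one at 3 min in glucose. The mutant's AMD1 was lower than in galactose in the late phase, at -0.87 ± 0.21 (adjusted p = 0.00153) in glucose and -0.99 ± 0.21 (adjusted p = 0.000465) in fructose, just short of 2-fold and so not called. Against WT at matched times the difference was -0.98 ± 0.12 (adjusted p = 3.15e-05) in early glucose, -0.95 ± 0.14 (adjusted p = 6.37e-05) in late glucose, -0.71 ± 0.12 (adjusted p = 0.000521) in early fructose and -0.95 ± 0.14 (adjusted p = 9.03e-05) in late fructose. The ratio of tps1 to WT ran from 0.393 to 0.703 over the 14 matched times, and it was below 1 at each. AMD1 was called with equal FPKM sums as lower than in galactose in late tps1, at -1.69 in glucose and -1.87 in fructose, and in early tps1 glucose, at -1.02 ± 0.27 (adjusted p = 0.00459). In the same order, that scaling put the median gene itself at -0.84, -0.89 and -0.48. It called 40.9%, 42.4% and 14.2% of all genes there.

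ISN1, the next enzyme, was higher in tps1 than in WT at every matched time after sugar. In WT it measured 65.5, 55.7, 43.5, 27.8, 37.6, 39.2, 46.8 and 51.1 FPKM in the glucose course and 56.0, 53.2, 42.9, 42.4, 41.5, 41.9, 47.6 and 58.3 FPKM in the fructose course. In tps1 the glucose course gave 48.0, 63.1, 71.6, 87.2, 105, 112, 109.9 and 78.8 FPKM and the fructose course 50.5, 71.6, 81.4, 90.3, 99.6, 102, 137 and 126 FPKM. Every WT library after glucose lay below both WT galactose libraries, with the lowest at 10 min, whereas every tps1 library after sugar lay above both of its galactose libraries. The WT difference from galactose in early glucose was -0.59 ± 0.22 (adjusted p = 0.0642), which was not called. ISN1 rose in tps1 in late fructose, by 1.28 ± 0.23 (adjusted p = 9.74e-05), and in late glucose it came to 0.99 ± 0.23 (adjusted p = 0.00111), just under 2-fold. Early values in tps1 were 0.69 ± 0.22 (adjusted p = 0.025) in glucose and 0.78 ± 0.22 (adjusted p = 0.0164) in fructose, also under 2-fold.

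PNP1, which acts on inosine, was higher in tps1 than in WT at every matched time after sugar. Its WT values were 131, 111, 109, 107, 117, 114, 98.8 and 123 FPKM in glucose and 114, 120.1, 121, 121, 110.4, 115, 114 and 116 FPKM in fructose. The tps1 values were 133, 157, 179, 204, 263, 344, 519 and 549.6 FPKM in glucose and 111, 150.1, 177, 206, 214, 283, 362 and 398 FPKM in fructose. WT stayed between 98.8 and 131 FPKM in all 16 libraries, and in tps1 each time from 3 min on was higher than the one before, in both courses. PNP1 rose in late tps1 by 1.91 ± 0.19 (adjusted p = 1.24e-07) in glucose and by 1.49 ± 0.19 (adjusted p = 3.98e-06) in fructose. Its early differences, 0.69 ± 0.18 (adjusted p = 0.0107) in glucose and 0.60 ± 0.18 (adjusted p = 0.0236) in fructose, were under 2-fold. In WT the differences from galactose lay between -0.13 and -0.04.

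Scaling bears on both genes. With equal FPKM sums the late rise of PNP1 in tps1 was called in glucose (1.05 ± 0.17, adjusted p = 1.02e-05) and fell under 2-fold in fructose (0.56 ± 0.17, adjusted p = 0.00532), and ISN1 came to 0.36 ± 0.22 (adjusted p = 0.152) in late fructose, not called. Both genes were higher than the median gene, which that scaling placed at -0.84 and -0.89. Since it moves all genes of a library together, a place relative to the median gene is no check.

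ISN1 and PNP1 rose in late tps1 fructose, as did ADO1 and APT1, whose windows are not shown. The windows around the start codons of ISN1 and PNP1 run from 250 bases before the coding start to 50 after it. They were read from RefSeq's copy of the sacCer3 assembly, at chrXV:627931-628230 (minus strand) for ISN1 and chrXII:561683-561982 (minus strand) for PNP1. Capitals mark GATGAG, the core of the PAC element of ribosome biogenesis genes, on either strand.
ISN1: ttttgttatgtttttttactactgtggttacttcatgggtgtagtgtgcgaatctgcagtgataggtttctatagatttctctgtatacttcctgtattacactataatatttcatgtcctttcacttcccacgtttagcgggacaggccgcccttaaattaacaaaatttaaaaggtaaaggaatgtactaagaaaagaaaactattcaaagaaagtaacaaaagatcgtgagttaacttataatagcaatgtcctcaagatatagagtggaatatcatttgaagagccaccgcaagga
PNP1: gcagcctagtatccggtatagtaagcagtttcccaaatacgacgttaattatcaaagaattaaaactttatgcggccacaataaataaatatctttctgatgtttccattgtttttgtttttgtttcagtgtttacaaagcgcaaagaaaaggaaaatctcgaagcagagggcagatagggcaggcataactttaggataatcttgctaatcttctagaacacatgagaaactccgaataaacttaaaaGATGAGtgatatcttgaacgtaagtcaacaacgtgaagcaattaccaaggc
The only match in PNP1 overlaps the start codon, and ISN1 has none in this window. Neither window holds TGACTC, the core bound by Bas1 and Gcn4, AAAATTTT or AGGGG on either strand. Of the other genes that rose in late tps1 fructose, ADO1 has GATGAG, and APT1 has TGACTC and AAAATTTT. The reading frame of ISN1 (YOR155C) spans chrXV:626628-627980 and that of PNP1 (YLR209C) spans chrXII:560797-561732, each a single exon that overlaps no other annotated gene.

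AAH1 gave the sharpest WT response of the 10. Its WT values were 86.9, 249, 631, 682, 396, 315, 179 and 117 FPKM in glucose and 95.5, 171, 415, 456, 308, 275, 208 and 126 FPKM in fructose. The tps1 values were 92.4, 103, 98.8, 103, 111, 131, 149 and 151 FPKM in glucose and 81.9, 97.3, 107, 99.7, 114, 119, 130.1 and 167 FPKM in fructose. WT peaked at 10 min in both sugars, at 7.47-fold the galactose mean in glucose and 4.99-fold in fructose, and was back to 1.28-fold and 1.38-fold at 120 min. In tps1 no library passed 1.92-fold, and the highest came at 120 min. AAH1 rose in early WT by 2.30 ± 0.37 (adjusted p = 0.000251) in glucose and by 1.78 ± 0.37 (adjusted p = 0.00329) in fructose. With either WT galactose library left out, the fructose value was 1.72 (adjusted p = 0.078) or 1.85 (adjusted p = 0.0523), neither past the threshold. The late WT values of AAH1, 1.03 ± 0.39 (adjusted p = 0.121) and 1.08 ± 0.39 (adjusted p = 0.0691), were not called, although without the 120 min library that in fructose was 1.39 (adjusted p = 0.0233).

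IMD4 followed AAH1 in WT at a smaller scale. Its values were 145, 198, 351, 334, 293, 317, 220.3 and 157 FPKM in WT glucose and 133, 178, 324, 372, 287, 322, 281 and 231 FPKM in WT fructose. In tps1 they were 124, 127, 120.4, 130.3, 136, 144, 117 and 112 FPKM in glucose and 104, 117, 139, 168, 162, 185, 184 and 195 FPKM in fructose. Every WT library after sugar lay above both WT galactose libraries and above every tps1 glucose library. IMD4 rose in early WT by 1.04 ± 0.25 (adjusted p = 0.00625) in glucose and 1.01 ± 0.25 (adjusted p = 0.012) in fructose. Both values sit at the 2-fold line: with equal FPKM sums they were 0.95 ± 0.21 (adjusted p = 0.00448) and 0.84 ± 0.21 (adjusted p = 0.0155), and leaving out either WT galactose library gave an adjusted p between 0.0756 and 0.125. Without the 5 min or the 10 min library of the course they were 0.87 to 0.97, all under 2-fold. In late WT fructose IMD4 came to 0.98 ± 0.26 (adjusted p = 0.0214), and to 1.11 (adjusted p = 0.0148) without the 120 min library.

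The windows of AAH1 (chrXIV:359346-359645, plus strand) and IMD4 (chrXIII:164127-164426, minus strand) are shown because these were the 2 members that rose in WT in both sugars. Capitals again mark GATGAG, or CTCATC where it lies on the other strand.
AAH1: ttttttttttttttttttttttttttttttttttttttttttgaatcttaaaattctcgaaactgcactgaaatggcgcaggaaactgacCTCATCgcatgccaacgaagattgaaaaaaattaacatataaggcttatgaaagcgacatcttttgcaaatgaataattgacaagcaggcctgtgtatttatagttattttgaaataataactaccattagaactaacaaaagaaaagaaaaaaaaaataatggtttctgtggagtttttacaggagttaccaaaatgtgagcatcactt
IMD4: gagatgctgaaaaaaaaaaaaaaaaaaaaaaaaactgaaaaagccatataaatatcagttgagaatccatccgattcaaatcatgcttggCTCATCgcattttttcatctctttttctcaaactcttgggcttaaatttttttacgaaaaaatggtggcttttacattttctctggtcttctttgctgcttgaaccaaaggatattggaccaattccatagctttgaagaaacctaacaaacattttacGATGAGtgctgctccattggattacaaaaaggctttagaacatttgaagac
Both windows hold the motif on the opposite strand at the same place, at -160 to -155 counted from the A of the start codon as 0, and IMD4 has a further match that overlaps the start codon. GATGAG was found in 6 of the 10 members (also in ADO1, PNP1, HPT1 and IMD3) and in 20.4% of 6002 windows of the same length in the genome. TGACTC was found in APT1 and in 8.0% of all windows, AAAATTTT in APT1 and HPT1 (9.0%), and AGGGG in AMD1 and HPT1 (21.6%). A match describes letters and not binding. AAH1 (YNL141W) is a single exon at chrXIV:359596-360639. IMD4 (YML056C, chrXIII:162194-164176) has an intron of 408 bp that holds SNR54, a small nucleolar RNA on the same strand, so that fragments of either could add to its value.

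HPT1, which returns hypoxanthine and guanine to nucleotides, fell in the mutant after glucose. It measured 568, 615, 744, 684, 805, 934, 727 and 625 FPKM in WT glucose and 636, 603, 599.7, 685, 697, 869, 876 and 711 FPKM in WT fructose. In tps1 the values were 777, 819.8, 704, 618, 529, 366, 305 and 372 FPKM in glucose and 771, 730.3, 801, 778, 749.9, 662, 543 and 474 FPKM in fructose. The 3 late tps1 glucose libraries lay below all the other HPT1 values of the study, and in fructose the decline came later and was smaller. HPT1 fell in late tps1 glucose by 1.16 ± 0.17 (adjusted p = 1.31e-05), and in late fructose the difference of -0.48 ± 0.17 (adjusted p = 0.0252) was under 2-fold. In WT the late differences were above 0 and not called, with 0.32 ± 0.17 (adjusted p = 0.28) in glucose and 0.44 ± 0.17 (adjusted p = 0.0945) in fructose. With equal FPKM sums HPT1 was called as lower in tps1 in late fructose as well, at -1.41 ± 0.22 (adjusted p = 5.38e-06). That scaling put the median gene itself at -0.89 there and called 42.4% of all genes. Less the median gene, HPT1 was at -0.53, close to its value with the FPKM as deposited.

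APT1, which salvages adenine, measured 473, 419, 575, 619.8, 701, 603, 428 and 389 FPKM in WT glucose and 381, 483, 593, 749, 669, 654, 569 and 434 FPKM in WT fructose. In tps1 it measured 359, 504, 509.6, 639, 636, 756, 736 and 467 FPKM in glucose and 371, 564, 743, 771, 792, 898, 935 and 854 FPKM in fructose. WT libraries were highest at 10 or 15 min and near their galactose level at 120 min, whereas the tps1 fructose course was still high at its end. APT1 rose in tps1 in late fructose by 1.29 ± 0.24 (adjusted p = 0.000115), and in late glucose the difference of 0.80 ± 0.24 (adjusted p = 0.00742) was under 2-fold (1.03 without the 120 min library). The late glucose difference of APT1 turned, with equal FPKM sums, to -0.06 ± 0.19 (adjusted p = 0.789). Its paralogue APT2 shares 58.5% of the coding sequence and no 50-base stretch with it.

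ADO1, which phosphorylates adenosine, was already the highest member in galactose. It measured 1453, 1264, 1454, 1425, 1795, 1960.4, 1616 and 1405 FPKM in WT glucose and 1169, 1433, 1493, 1664, 1575, 1831, 1700.4 and 1512 FPKM in WT fructose. In tps1 the values were 1186, 1745, 1881, 2467, 2484, 2555, 2024 and 1359.6 FPKM in glucose and 1182, 1753, 2015, 2315, 2429, 2725, 2923 and 2934 FPKM in fructose. The tps1 glucose course turned back after 30 min and ended close to the level of WT, and the fructose course did not turn back. ADO1 rose in tps1 in late fructose by 1.27 ± 0.21 (adjusted p = 3.57e-05), and the values of 0.84 ± 0.20 (adjusted p = 0.0055) in early glucose, 0.83 ± 0.20 (adjusted p = 0.00624) in early fructose and 0.69 ± 0.21 (adjusted p = 0.00838) in late glucose were under 2-fold. With equal FPKM sums neither late fructose rise was called, with 0.36 ± 0.19 (adjusted p = 0.0885) for APT1 and 0.34 ± 0.15 (adjusted p = 0.0447) for ADO1, and the late glucose difference of ADO1 turned to -0.17 ± 0.15 (adjusted p = 0.303).

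The other 2 genes of IMP dehydrogenase differed from IMD4. IMD2, whose transcription is known to respond to guanine nucleotides, measured 70.4, 68.5, 67.3, 61.0, 77.7, 73.6, 70.2 and 81.9 FPKM in WT glucose and 64.6, 68.7, 77.1, 80.6, 78.0, 86.2, 81.6 and 79.7 FPKM in WT fructose. In tps1 it measured 86.7, 117, 125, 139.7, 147, 156, 119 and 62.3 FPKM in glucose and 107, 130.1, 163, 171, 173, 189.8, 197 and 171 FPKM in fructose. WT never left the range from 61.0 to 86.2 FPKM, and all tps1 libraries lay above that range except the one at 120 min in glucose. The mutant's IMD2 differed from its own galactose level by 0.71 ± 0.20 (adjusted p = 0.0187) in early and 0.94 ± 0.21 (adjusted p = 0.000997) in late fructose, neither called.

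IMD3, the most abundant of the family, measured 323, 357, 459, 477, 466, 462, 367 and 346 FPKM in WT glucose and 325, 363, 451, 523, 464, 510.1, 456 and 418 FPKM in WT fructose. The tps1 values were 393, 467, 514, 594, 649.5, 713, 568 and 310.2 FPKM in glucose and 372, 471, 572, 620.3, 664, 739, 777 and 754 FPKM in fructose. None of its differences from galactose was called, the highest being 0.98 ± 0.23 (adjusted p = 0.00114) in late tps1 fructose. The tps1 glucose course was highest at 30 min and lay below both tps1 galactose libraries at 120 min.

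Each IMP dehydrogenase gene therefore took a different share of the family's summed FPKM, a measure that scaling of the library leaves untouched. In WT the share of IMD4 was 26.9, 31.8, 40.0, 38.3, 35.1, 37.2, 33.5 and 26.9% over the 8 times in glucose and 25.5, 29.2, 38.0, 38.1, 34.6, 35.1, 34.3 and 31.7% in fructose. In tps1 it was 20.6, 17.9, 15.9, 15.1, 14.6, 14.2, 14.6 and 23.1% in glucose and 17.8, 16.3, 15.9, 17.5, 16.2, 16.6, 15.9 and 17.4% in fructose. Every WT library gave IMD4 a larger share than every tps1 library, galactose included. IMD2 held 6.99 to 14.0% of the sum in WT and 12.9 to 18.4% in tps1. This measure was chosen after seeing the values and is given without a test.

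At matched times the tps1 minus WT difference of the summed FPKM of IMD2, IMD3 and IMD4 was 0.03 ± 0.11 (adjusted p = 0.827) in early glucose, 0.09 ± 0.12 (adjusted p = 0.567) in late glucose, 0.13 ± 0.11 (adjusted p = 0.355) in early fructose and 0.47 ± 0.12 (adjusted p = 0.00612) in late fructose. None was called. Under equal FPKM sums the difference was -0.28 ± 0.10 (adjusted p = 0.0338) in early glucose, -0.51 ± 0.12 (adjusted p = 0.00169) in late glucose, -0.12 ± 0.10 (adjusted p = 0.369) in early fructose and -0.13 ± 0.12 (adjusted p = 0.361) in late fructose, each below 0. The coding sequences of IMD2 and IMD3 are 88.9% identical and share 8.0% of their 50-base stretches, and those of IMD3 and IMD4 are 82.5% identical and share 7.0%. The sources used here do not say how the authors placed fragments that fit several copies, so the split among the 3 genes is less certain than their sum.

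**Figure D3:**
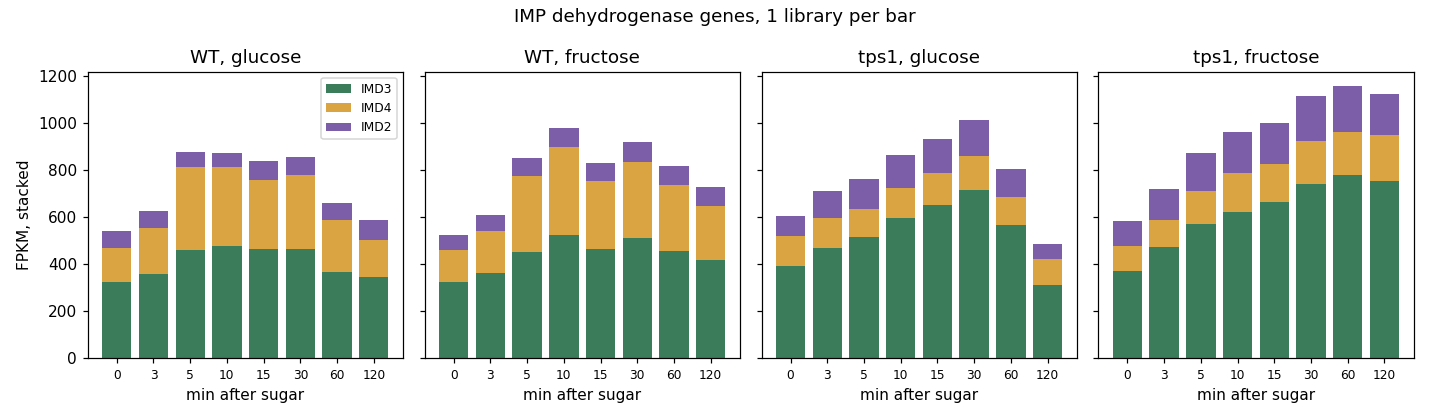
FPKM of IMD3, IMD4 and IMD2 stacked for each library (1 bar per time), in 4 panels by strain and sugar. IMD4 makes up 25.5 to 40.0% of the bar in WT and 14.2 to 23.1% in tps1, and the tps1 glucose bar drops at 120 min.

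Set against WT at matched times, members were called in both directions. In early glucose 2 members were called, AAH1 and IMD4, both lower in tps1, where 13.2% of all genes were called. In early fructose AAH1 was lower and IMD2 higher, against 9.03% of all genes. In late glucose PNP1 and ISN1 were higher and HPT1 lower (21.6% of all genes), and in late fructose PNP1, ISN1 and IMD2 were higher (19.4%). The median difference of the members was 0.17, 0.31, 0.29 and 0.72 in these 4 comparisons, where the median of all genes lay between -0.05 and 0.01.

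AAH1 differed by -2.12 ± 0.31 (adjusted p = 0.000138) in early glucose and by -1.59 ± 0.31 (adjusted p = 0.00156) in early fructose, and was lower in tps1 at 6 of the 7 times in each sugar. PNP1 differed by 2.04 ± 0.17 (adjusted p = 1.54e-06) in late glucose and 1.57 ± 0.17 (adjusted p = 1.29e-05) in late fructose, and it was higher in tps1 at all 7 times of both courses, by up to 5.26-fold at 60 min in glucose. ISN1 differed by 1.11 ± 0.24 (adjusted p = 0.00138) and 1.29 ± 0.24 (adjusted p = 0.000536) in the same phases, and it too was higher at all 7 times of each. HPT1 differed by -1.12 ± 0.16 (adjusted p = 6.15e-05) in late glucose. Without the 30 min pair the late glucose values of ISN1 and HPT1 were 0.916 and -0.998, both just under 2-fold. Where the strain difference in galactose was taken off, 7.8% and 1.98% of all genes were called in early glucose and fructose, and 16.4% and 15.0% in late glucose and fructose. On that basis the difference of AAH1 was -2.05 ± 0.54 (adjusted p = 0.0317) in early glucose and -1.53 ± 0.54 (adjusted p = 0.124) in early fructose, the latter not called. IMD4 differed by -1.16 ± 0.15 (adjusted p = 6.07e-05) in early glucose and was lower at all 7 times of each course. IMD2 differed by 1.05 ± 0.17 (adjusted p = 0.000441) in early and 1.16 ± 0.20 (adjusted p = 0.000269) in late fructose. Since IMD2 was also the higher in tps1 in galactose, taking that difference off left 0.54 ± 0.29 (adjusted p = 0.271) and 0.65 ± 0.31 (adjusted p = 0.13), neither called, and left IMD4 at -0.87 ± 0.26 (adjusted p = 0.0468) in early glucose, under 2-fold.

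**Figure D4:**
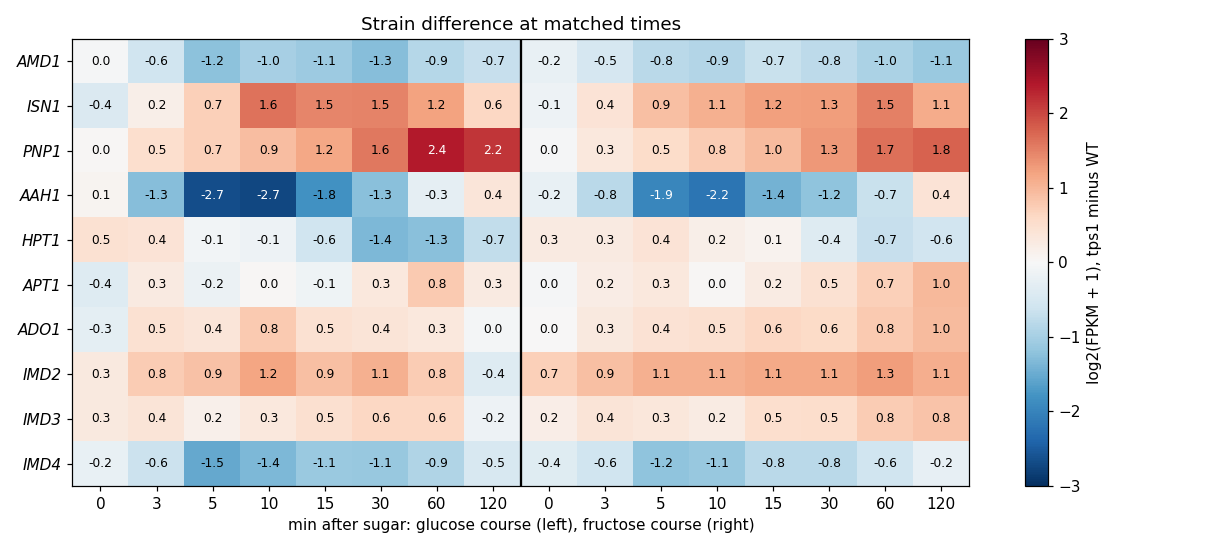
Difference in log2(FPKM + 1), tps1 minus WT, for each gene (rows) at each time of the glucose (left) and fructose (right) course, red where tps1 is higher and blue where it is lower. AMD1, AAH1 and IMD4 are blue through the early times, and ISN1 and PNP1 are red from 3 min to the end.

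With equal FPKM sums the strain differences of all members after sugar shifted down. Those in galactose shifted up, with the median gene at 0.11, and no member was called there, where 0.113% of all genes were. The late differences of PNP1 were 1.45 ± 0.14 (adjusted p = 2.09e-06) in glucose, still called, and 0.98 ± 0.14 (adjusted p = 4.42e-05) in fructose, just under 2-fold. Those of ISN1 were 0.52 ± 0.21 (adjusted p = 0.0419) and 0.70 ± 0.21 (adjusted p = 0.00943), and that of IMD2 in late fructose was 0.57 ± 0.20 (adjusted p = 0.0192). Under this scaling AMD1, HPT1 and IMD4 were called as lower in tps1 in both late comparisons, with AMD1 at -1.51 and -1.50, HPT1 at -1.71 and -1.15, and IMD4 at -1.43 and -1.14, and AAH1 was called in late fructose at -1.08. In the early phase AMD1 in glucose (-1.28) and IMD4 in fructose (-1.19) became called, and IMD2 in fructose came under 2-fold (0.80). The late glucose differences of ADO1, APT1, IMD2 and IMD3 changed sign, from 0.22, 0.46, 0.48 and 0.36 to -0.38, -0.14, -0.11 and -0.23. The median gene stood at -0.61 in late glucose and -0.57 in late fructose. ISN1 and PNP1 lay above it, and AMD1, HPT1 and IMD4 below it, as with the FPKM as deposited. Equal sums move all genes of a library together, so these places could hardly change and are no check.

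**Figure D5:**
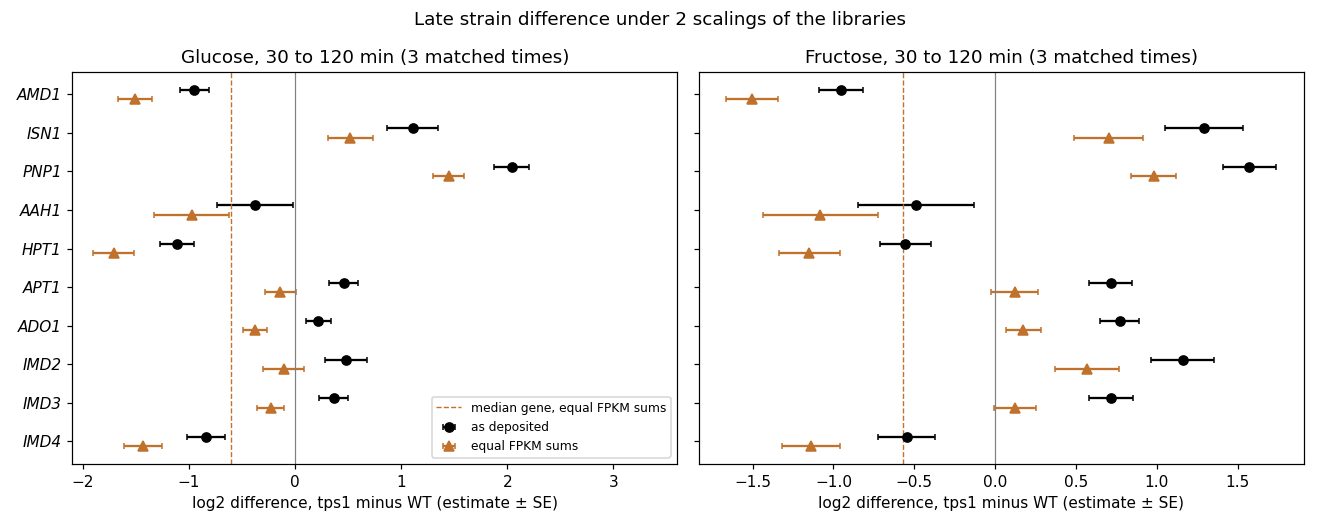
Late tps1 minus WT log2 difference of each gene (bars are ± SE) with the FPKM as deposited (black circles) and with equal FPKM sums (brown triangles), the dashed line marking the median gene under equal sums. PNP1 and ISN1 stay right of 0 and AMD1, HPT1, IMD4 and AAH1 left of it in both panels.

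The ratio of 2 genes within a library is free of that scaling. ISN1 over AMD1, the enzyme that uses IMP over the one that makes it from AMP, was 2.12, 1.28, 0.819, 0.815, 1.10, 1.16, 1.61 and 1.71 over the 8 times in WT glucose and 1.69, 1.47, 1.04, 1.35, 1.34, 1.53, 1.71 and 1.94 in WT fructose. In tps1 it was 1.59, 2.23, 3.25, 5.22, 6.85, 8.42, 7.06 and 4.37 in glucose and 1.80, 2.81, 3.50, 5.48, 5.21, 6.57, 9.87 and 9.50 in fructose. All 14 tps1 libraries after sugar lay above all 16 WT libraries. PNP1 over HPT1, the enzyme that releases hypoxanthine over the one that recovers it, lay between 0.122 and 0.230 in WT. In tps1 it went from 0.171 at 0 min to 1.70 at 60 min in glucose, and from 0.144 to 0.840 at 120 min in fructose. Both ratios were chosen after seeing the values and carry no test.

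No member was called between the sugars. In WT limma called 0 members between glucose and fructose over the 7 times, where 0.306% of all genes were called. An unadjusted p under 0.05 was found for 2 members and for 18.0% of all genes. In tps1 limma also called 0 (0.693% of all genes). There 36.5% of all genes had an unadjusted p under 0.05, as did 6 members. Among these IMD2, at -0.50 ± 0.12 (adjusted p = 0.00891), HPT1, at -0.41 ± 0.11 (adjusted p = 0.0125), APT1, at -0.39 ± 0.08 (adjusted p = 0.00357), and IMD4, at -0.36 ± 0.10 (adjusted p = 0.0202), were lower in glucose, and PNP1 was higher by 0.23 ± 0.07 (adjusted p = 0.0273), each under 2-fold. Whether the strain difference itself depended on the sugar was tested too. In the early phase 0 members were called (0.0% of all genes) and 0 had an unadjusted p under 0.05 in limma (4.55%). In the late phase 0 were called (0.145% of all genes) and 3 had such a p (18.9%). These 3 were ADO1 (-0.55 ± 0.17, adjusted p = 0.117), HPT1 (-0.56 ± 0.23, adjusted p = 0.201) and IMD2 (-0.68 ± 0.28, adjusted p = 0.205), all with a lower strain difference in glucose.

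Of 28 further genes of purine uptake, interconversion and phosphoribosyl pyrophosphate supply, 27 passed the expression filter, and IMD1 did not. In early WT glucose 2 were called higher and 1 lower, where 7.04% of all genes were called. GUA1, the GMP synthase that follows IMP dehydrogenase, was higher by 1.21 ± 0.33 (adjusted p = 0.0144), and BAS1, a transcription factor of purine synthesis genes, by 1.13 ± 0.25 (adjusted p = 0.0035). The nucleoside diphosphate kinase gene YNK1 was lower, at -1.83 ± 0.36 (adjusted p = 0.00171). In early WT fructose GUA1 (1.02 ± 0.33, adjusted p = 0.0433) and YNK1 (-1.36 ± 0.36, adjusted p = 0.0156) were the 2 called, against 5.06% of all genes. Late WT glucose had 0 called (1.74% of all genes), with 12 at an unadjusted p under 0.05 in limma (21.8% of all genes). Late WT fructose had 2 called (3.97%), ADE13 (adenylosuccinate lyase) up by 1.01 and YNK1 at -1.21.

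In tps1 the same list had 0 called genes in either early phase, where 3.68% (glucose) and 3.01% (fructose) of all genes were called. In limma 13 and 15 of the list had an unadjusted p under 0.05, against 36.0% and 33.1% of all genes. The late phase had 1 called gene in glucose (15.3% of all genes) and 3 in fructose (16.3%). GUK1, the guanylate kinase, was called higher in late glucose (1.62 ± 0.18, adjusted p = 3.75e-07) and late fructose (1.33 ± 0.18, adjusted p = 5.96e-06). PRS3, a subunit of phosphoribosyl pyrophosphate synthetase, was higher in late fructose by 1.08 ± 0.24 (adjusted p = 0.000622), and PHO2, the partner of Bas1, was lower at -1.21 ± 0.18 (adjusted p = 1.53e-05). Against WT the list had 3 called genes in early glucose (13.2% of all genes), 3 in late glucose (21.6%), 2 in early fructose (9.03%) and 3 in late fructose (19.4%). BAS1 was called lower in tps1 in early glucose (-1.18), late glucose (-1.23) and late fructose (-1.06). The purine-cytosine permease FCY2 was lower in early glucose (-1.34), late glucose (-1.56) and early fructose (-1.02). YNK1 was higher in early glucose (1.87), early fructose (1.88) and late fructose (1.79). GUK1 in late glucose (1.23) and the adenylate kinase ADK2 in late fructose (1.17) were also called as higher. limma called 0 of the list in galactose (3 at an unadjusted p under 0.05), 0 between the sugars in WT (4) and 0 in tps1 (16). Such a p was reached by 11.8%, 18.0% and 36.5% of all genes, in that order. The nucleoside transporter FUN26 was the 1 listed gene whose strain difference depended on the sugar, with -1.001 ± 0.15 (adjusted p = 0.025) in the late phase, and it was not called with equal FPKM sums (adjusted p = 0.0732). That scaling also put GUK1 under 2-fold at 0.76, 0.40 and 0.63, PRS3 at 0.15, ADK2 at 0.58, GUA1 in WT fructose at 0.85 and ADE13 at 0.79, and it kept the calls of YNK1, BAS1, FCY2 and PHO2. The median of the 27 genes was 0.31 in early WT glucose and 0.33 in early WT fructose, and 0.10 and 0.50 in late tps1, against medians of all genes from -0.03 to 0.00.

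The genes whose log2(FPKM + 1) followed a member most closely over the 32 libraries, out of 5487 compared, differed from member to member. Pearson's r is given as a description, since the libraries share strains, times and scaling. AAH1 was closest to NOP2 (r = 0.953) and HCA4 (0.952), and IMD4 to NOP58 (0.960) and MRT4 (0.934). Between AAH1 and IMD4 themselves r was 0.887. ADO1 was closest to RPL2B (0.953) and RPL28 (0.951), and IMD3 to GRS1 (0.959) and SUB2 (0.937). PNP1 was closest to YDL086W (0.991) and FMP41 (0.991), ISN1 to YMR027W (0.983) and YET3 (0.980), and AMD1 to PDE2 (0.967) and YGR054W (0.958). IMD2 (PEX11, 0.936), APT1 (CFD1, 0.916) and HPT1 (RPB7, 0.889) had the weakest nearest neighbours.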

How the data were processed

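RNA of 32 yeast samples was extracted with hot acidic phenol and made into stranded libraries of poly-A RNA, per the labels' protocols. Per the submitters' processing notes, CASAVA 1.4, TopHat2 and Cuffnorm were used with the sacCer3 genome. The deposited table holds FPKM for 6717 genes in 32 columns, each matched to a label. How Cuffnorm scaled the libraries, whether strand was used in counting, and how fragments that fit several genes were placed is not stated in the sources used here. No fragment counts or reads were used here.

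Values were tested as log2(FPKM + 1) with limma 3.58.1 in R 4.3.3 (trended prior variance, Benjamini-Hochberg adjustment within each of 17 comparisons) over the 6203 genes that averaged 1 FPKM or more. The 1 row with no gene ID, at most 0.00057% of a library's FPKM, was not used. Phases were compared with galactose in 1 cell-means fit that took all 32 libraries, and strains and sugars in fits of 16 differences each at matched times. Depth was fitted to the steps between low FPKM values. After the fit 90.7% of 1382 such values came within 0.1 of whole fragments, which describes the fit and is no separate check. The members, the related list, the motifs and the tests were chosen with earlier results of these data known. Named genes were all 10 members, TPS1, called genes of the related list, and the 2 genes closest to each member among those of at least 300 bp coding length. Alternatives were a pseudocount of 5, no filter, equal FPKM sums, median-of-ratios scaling, a baseline of the same course's galactose library, strain differences less that in galactose, no matching by time, IMD genes summed, and each library or time left out. The summed IMD genes and the differences less galactose were also run with equal sums, which was chosen after seeing the data. The fits were also run on simulated data with planted differences and independent libraries. The libraries here are serial samples, so that run is no check of the p-values. Sequences are RefSeq's. Tables and figures used Python 3.11.15, numpy 2.4.6, pandas 2.3.3, Biopython 1.88 and matplotlib 3.10.9.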

Additional observations from a re-analysis of the deposited data

Results flagged for a closer look

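Of 40 groups of 4 early libraries, 3 had a library whose gap to the nearest other was over 0.829 of the group's range. These were ISN1 in WT fructose at 3 min (53.2 FPKM, the highest of its 4), PNP1 in WT fructose at 15 min (110.4 FPKM, the lowest of its 4) and IMD3 in WT glucose at 3 min (357 FPKM, the lowest of its 4). Chance flags about 1 group in 20 where the 4 are independent replicates. Here they are successive times of a course and are shared by all members, so that rate does not carry over.

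In 7 of 40 tests the response of a member to sugar differed between the strains, that is, the tps1 minus WT difference in a phase less that in galactose was called by limma. Of all genes, 7.8% were called in this way in early glucose, 1.98% in early fructose, 16.4% in late glucose and 15.0% in late fructose. In early glucose these were AAH1 at -2.05 (adjusted p = 0.0317) and ISN1 at 1.28 (adjusted p = 0.0388). In late glucose they were PNP1 at 2.04 (adjusted p = 0.00109), ISN1 at 1.40 (adjusted p = 0.0156) and HPT1 at -1.48 (adjusted p = 0.00192). In late fructose they were PNP1 at 1.57 (adjusted p = 0.00382) and ISN1 at 1.58 (adjusted p = 0.0122). Of these 7, 4 were not called with equal FPKM sums, namely ISN1 in early glucose (0.86 ± 0.32, adjusted p = 0.0567), in late glucose (0.70 ± 0.34, adjusted p = 0.0931) and in late fructose (0.88 ± 0.34, adjusted p = 0.0409), and PNP1 in late fructose (0.87 ± 0.22, adjusted p = 0.00654).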

How the results depend on the processing

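The number of members called in each comparison was recomputed under every alternative. With equal FPKM sums it went from 2 to 1 in early WT glucose and in early WT fructose, from 0 to 1 in early tps1 glucose and from 4 to 2 in late tps1 fructose, where the 2 were HPT1 and AMD1, both lower, and the 4 were PNP1, ISN1, ADO1 and APT1, all higher. It went from 2 to 3 in late tps1 glucose and in the strain difference of early glucose, and from 3 to 4 in those of late glucose and late fructose. Of all genes, equal sums called 6.34% and 4.82% in early WT (glucose, fructose) and 14.2% in early tps1 glucose. In late tps1 the share was 40.9% in glucose and 42.4% in fructose. For the strain differences it was 17.3% in early glucose, 33.9% in late glucose and 29.5% in late fructose. With the galactose library of the same course as the only baseline, that group held 1 library, so only differences are given. In early WT, AAH1 then stood at 2.37 in glucose and 1.72 in fructose, and IMD4 at 0.98 and 1.06. In late tps1, ISN1 came to 1.03 in glucose and IMD3 to 1.02 in fructose, against 0.99 and 0.98 with both galactose libraries. A pseudocount of 5 gave 1 member in early WT fructose, where 3.97% of all genes were called. Taking off the galactose difference left 0 of the 2 members in the strain difference of early fructose, where 1.98% of all genes were called. Leaving out 1 library or matched time gave 1 to 2 members in early WT glucose, 0 to 2 in early and in late WT fructose, 2 to 4 in late tps1 glucose, 0 to 1 in early tps1 fructose, 2 to 4 in the strain difference of early glucose and of early fructose, and 1 to 5 in that of late glucose. No share of all genes was computed for the fits with a library or time left out. The strain difference of IMD2 in late fructose reversed to -0.0563 (adjusted p = 0.888) when both the galactose difference was taken off and the sums were made equal. Among single members, no filter and no matching by time changed no call of those run, median-of-ratios scaling added 2 calls of 170, and equal FPKM sums added 12 and ended 11. For equal sums the shift of the median gene is that scaling's own construction, and for the others the cause was not tested.

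Over all genes, equal FPKM sums turned the late tps1 split of higher to lower calls from 464 to 487 in glucose into 52 to 2486, and from 465 to 544 in fructose into 22 to 2610. Late strain differences went from 683 to 657 (glucose) to 245 to 1856, and from 598 to 608 (fructose) to 190 to 1642. No paired analysis was possible by replicate number because the labels give none, and the comparisons of strains and of sugars were paired by time. With 1 library per strain, sugar and time, small differences could not be resolved. As few as about 92 fragments lay behind a value of AMD1, and how far depth limits the low genes was not tested.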
